A study of Homo sapiens with 18 samples.

Results

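Selenoprotein mRNAs are read through an in-frame UGA codon, elsewhere a stop codon, at which the ribosome inserts selenocysteine. A set of 10 such genes, picked by symbol, was followed in DU145 cells exposed to GC7: GPX1, GPX4, MSRB1, SELENOW, SELENOH, SELENOF, SELENOM, SELENOT, SELENOK and SELENOS. All 10 were listed among the 15747 genes of the authors' deposited table of cell fractions and among the 44682 genes of their whole-cell table. DU145 is a cell line from a metastatic prostate carcinoma. The cells received 40 µM GC7 or vehicle only, for 24 h, and GC7 blocks deoxyhypusine synthase, the enzyme that starts hypusine formation on the translation factor eIF5A. RNA was taken from heavy polysomes of sucrose gradients, from cytoplasmic lysates and from whole cells, which gives 6 groups of 3 libraries: GC7 and vehicle in polysomes, in cytoplasm and in whole cells. Emetine, an elongation inhibitor, was added to cells of either treatment before lysis, per the labels.

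The deposited values are comparisons of GC7 with vehicle and not single libraries, so the value of each library, its depth and the SD between replicates are not given here. Separate cultures behind the replicates are not stated in the labels, so the spread on which p-values rest may be technical. A lower value of an mRNA in such bulk RNA cannot be told apart from fewer cells of a kind that holds it. All results come from 1 cell line. Neither table names its numerator. Here the category "UP" was taken to mean higher with GC7, whole-cell signs were turned to match, and if that is wrong each GC7 direction given here is the opposite. As a check of the label, the epithelial keratins KRT8 and KRT18 had mean normalized counts, per the authors' deposited table, of 18621 and 26823 in polysomes and of 32028 and 41006 in cytoplasm. KLK3, KLK2, TMPRSS2 and the leukocyte, endothelial and liver markers PTPRC, PECAM1 and ALB were not listed in that table of fractions, while the fibroblast collagen COL1A1 was listed in the authors' deposited table with mean normalized counts of 56.5 in polysomes and 62.5 in cytoplasm. Of 5 epithelial markers, EPCAM was called in polysomes, higher with GC7, and none in cytoplasm. Over all genes 11.1% were called in polysomes, 5.61% of them higher as a share of all genes, and 4.24% in cytoplasm. Whether the markers respond as a group was not tested.

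Recoding of UGA needs a hairpin in the 3′ untranslated region, the SECIS element, the protein SECISBP2 that binds it, and the elongation factor EEFSEC, which brings the selenocysteine tRNA to the ribosome. Ribosomes that stop at the UGA instead can expose the mRNA to nonsense-mediated decay, which is known to be triggered mainly when a stop lies well upstream of the last exon junction. Selenoproteins are mostly oxidoreductases with selenocysteine in the active site, and GPX4 among them keeps cells from ferroptosis, an iron-dependent death by lipid peroxidation.

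The recoded codons differ among the 10 mRNAs in where they lie and in what follows them. Their surroundings are printed because the shared in-frame codon is what defines the family; they are the coding strand, 5′ to 3′, of the canonical GENCODE transcripts on GRCh38, with the recoded TGA in capitals, and those of SELENOK and SELENOS run to the terminal stop.
GPX1: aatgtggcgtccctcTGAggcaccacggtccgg
GPX4: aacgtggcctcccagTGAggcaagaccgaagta
MSRB1: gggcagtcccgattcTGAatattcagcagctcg
SELENOW: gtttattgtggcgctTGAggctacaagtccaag
SELENOH: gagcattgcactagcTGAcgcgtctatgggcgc
SELENOF: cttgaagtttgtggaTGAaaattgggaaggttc
SELENOM: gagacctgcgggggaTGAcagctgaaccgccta
SELENOT: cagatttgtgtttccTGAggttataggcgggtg
SELENOK: ccaatggctggtggaTGAggaaggtaa
SELENOS: ccgtcatctggcggaTGAggctaa

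The base after the recoded TGA was G in 6 mRNAs (GPX1, GPX4, SELENOK, SELENOS, SELENOT and SELENOW), C in 2 (SELENOH and SELENOM) and A in 2 (MSRB1 and SELENOF). In SELENOW the TGA was codon 13 of 87 (chr19:47780732-47780734, plus strand, exon 2 of 6). It stood in the first part of the coding sequence also in SELENOH, at codon 44 of 122 (chr11:57741816-57741818, plus strand, exon 2 of 4), in SELENOM, at codon 48 of 145 (chr22:31105951-31105953, minus strand, exon 2 of 5), and in GPX1, at codon 49 of 203 (chr3:49358132-49358134, minus strand, exon 1 of 2). SELENOT had it at codon 49 of 195 (chr3:150622392-150622394, plus strand, exon 2 of 6) and GPX4 at codon 73 of 197 (chr19:1105403-1105405, plus strand, exon 3 of 7).

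Further along were SELENOF, at codon 96 of 165 (chr1:86880690-86880692, minus strand, exon 3 of 5), and MSRB1, at codon 95 of 116 (chr16:1940812-1940814, minus strand, exon 3 of 4). At the very end were SELENOK, at codon 92 of 94 (chr3:53885831-53885833, minus strand, exon 4 of 5), and SELENOS, at codon 188 of 189 (chr15:101272777-101272779, minus strand, exon 6 of 6). A ribosome that stopped at these last codons would have made nearly the whole protein, whereas in SELENOW it would have made a short peptide. The TGA ended more than 50 bases before the last exon junction in 7 mRNAs, with distances of 470 bases in SELENOT, 342 in GPX4, 267 in SELENOH, 243 in SELENOW, 135 in SELENOM, 105 in GPX1 and 78 in SELENOF. It lay 34 bases before that junction in MSRB1 and 5 bases before it in SELENOK, and in SELENOS it was in the last exon.

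**Figure D1:**
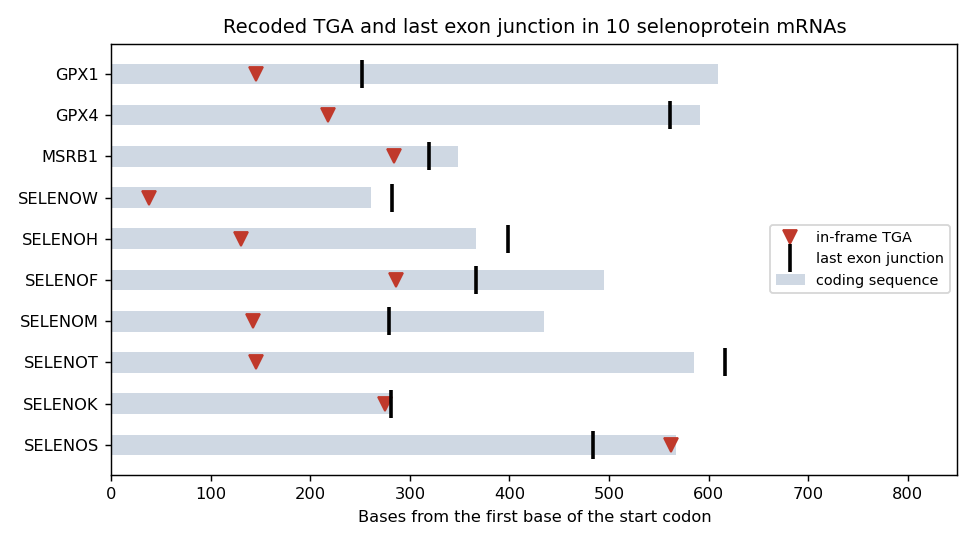
Place of the recoded TGA (red triangle) and of the last exon junction (black line) along the coding sequence (grey bar, without the terminal stop) of the 10 mRNAs, in bases from the first base of the start codon. The TGA of SELENOW is codon 13 of 87 and that of SELENOS codon 188 of 189, and only in SELENOS does the TGA lie after the last junction.

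The 10 coding sequences were short, at 261 to 609 bases, against a median of 1399.5 bases over the 12878 measured genes with a coding length, of which 13.2% were shorter than the longest of the 10. Proline triplets, spelled CCNCCNCCN in frame on the coding strand, are a class of motif at which eIF5A is known to help the ribosome. They occurred in 1 of the 10 (SELENOK), against 23.7% of 19630 annotated coding genes of all lengths. A shorter coding sequence has fewer places for such a triplet, and the share among genes of like length was not computed. No match says only that these letters are not in the annotated coding sequence.

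GPX4 was the most abundant of the 10 mRNAs per length, and the family spanned a wide range. In counts per kb of transcript computed from the authors' deposited table, GPX4 stood at 41447 in polysomes and 31449 in cytoplasm, and GPX1, which reduces hydrogen peroxide in the cytosol, at 10153 and 7325 in the same order. In polysomes SELENOF followed at 4556, SELENOM at 4189, SELENOH at 4140, SELENOW at 3563, MSRB1 at 2367, SELENOS at 1709, SELENOT at 1574 and SELENOK at 1011. In cytoplasm the order after GPX1 was SELENOW at 3892, SELENOM at 3661, SELENOH at 2232, SELENOF at 1551, MSRB1 at 1461, SELENOS at 1142, SELENOK at 1026 and SELENOT at 633. These are means over libraries with no deposited spread, so whether neighbours in the order differ beyond their spread cannot be given.

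The share of each mRNA on heavy polysomes was described by the log2 ratio of its mean normalized count in polysomes to that in cytoplasm, after subtraction of the median of all genes; this ratio pools GC7 and vehicle and has no test. SELENOF and SELENOT stood at the polysomal end and SELENOW and SELENOK at the cytoplasmic end. In the authors' deposited table SELENOF, an ER protein that binds the glycoprotein-folding sensor UGGT, had mean normalized counts of 7025 in polysomes and 2392 in cytoplasm. Its centred log2 ratio was 1.05, above 97.9% of genes. SELENOT, an oxidoreductase anchored in the ER membrane, had 5408 in polysomes and 2175 in cytoplasm in the authors' deposited table, which gave 0.81, above 95% of genes. At the other end SELENOW, a small thioredoxin-like protein, had 2701 in polysomes and 2951 in cytoplasm in the authors' deposited table, with a centred log2 ratio of -0.63 at percentile 12.9. SELENOK, an ER membrane protein that works with the palmitoyltransferase ZDHHC6, had 1513 in polysomes and 1536 in cytoplasm in that deposited table, with -0.52 at percentile 17.0.

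The other 6 lay between these. SELENOH, a nucleolar redox protein, stood at 0.39, MSRB1, which reduces oxidised methionine, at 0.19 and SELENOS, which links the ER membrane to the extraction ATPase VCP, at 0.08. GPX1 stood at -0.03, GPX4 at -0.10 and SELENOM, a soluble ER protein, at -0.31. The members' SD of 0.54 was near that of all genes, 0.60, and 5 of 10 were below the median gene. The sign of GPX1, GPX4 and SELENOM depends on the scaling, since as shares of the sum of all genes they stood at 0.32, 0.24 and 0.04. Mitochondrially encoded genes took 0.685% of that sum in polysomes and 11.9% in cytoplasm.

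**Figure D2:**
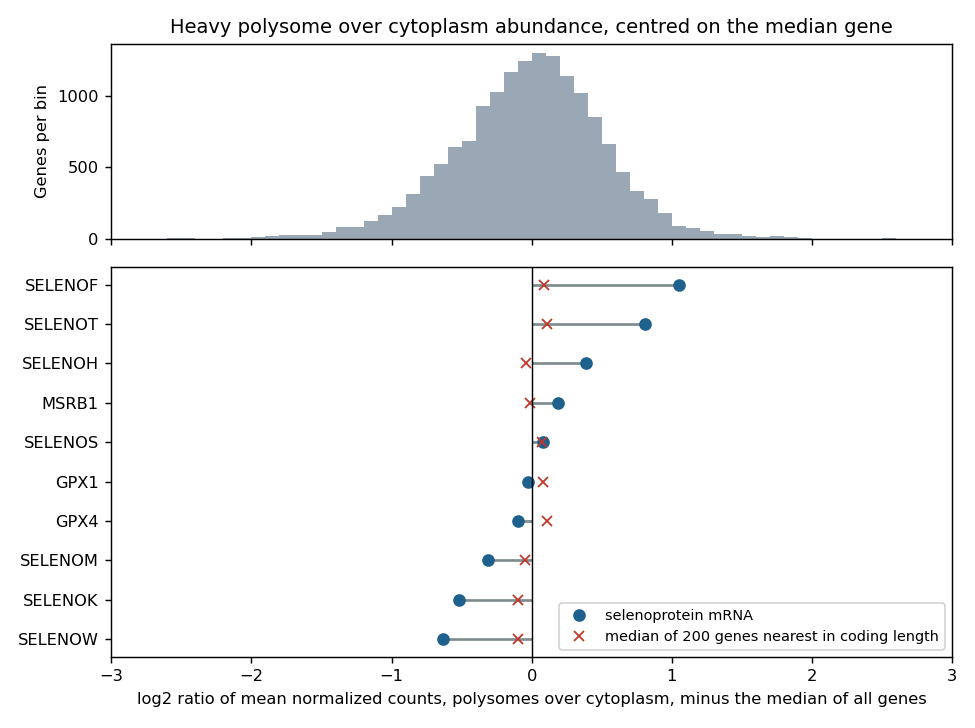
Upper panel: number of genes by log2 ratio of mean normalized count, polysomes over cytoplasm, minus the median of all genes (bins of 0.1, with 39 genes beyond 3 in size not drawn). Lower panel: the same ratio for the 10 selenoprotein mRNAs (blue) and the median of the 200 genes nearest to each in coding length (red crosses), where SELENOF at 1.05 and SELENOT at 0.81 lie farthest to the right and SELENOW at -0.63 farthest to the left.

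The 200 genes nearest in coding length had medians of 0.09 for SELENOF, 0.11 for SELENOT and -0.10 each for SELENOW and SELENOK, and those 4 mRNAs departed from genes of like length by 0.96, 0.70, -0.53 and -0.43. Over the 10 mRNAs the ratio had a Pearson r of -0.02 and a Spearman rho of 0.19 with the place of the TGA along the coding sequence, and of 0.51 and 0.37 with log2 coding length. With the log2 number of bases after the coding sequence they were 0.56 and 0.52. These are descriptions over 10 genes measured in the same libraries. SELENOT shares exon sequence with SERP1 on the opposite strand and strand use in counting is not stated, so reads of both cannot be told apart there. SERP1 had a centred ratio of 0.09.

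In heavy polysomes MSRB1 fell with GC7, and the other 9 mRNAs did not pass the authors' adjusted p of 0.05. Fold changes here are unshrunken log2 values, GC7 over vehicle, recovered from the deposited shrunken ones, each with its SE. MSRB1 stood at -0.44 ± 0.16 (SE), and the authors' deposited table gives a shrunken -0.36 with an adjusted p of 0.0486. SELENOH was at -0.48 ± 0.17, with an adjusted p of 0.052 in the authors' deposited table, and passed at 0.0494 when the deposited p-values were adjusted anew by Benjamini-Hochberg over the 15747 listed genes. SELENOT stood at -0.42 ± 0.18, with an adjusted p of 0.11 in the authors' deposited table. The 95% intervals of these 3 lay below 0, and the other 7 included 0.

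SELENOK was at -0.32 ± 0.18, SELENOF at -0.17 ± 0.15, SELENOW at -0.08 ± 0.24, SELENOM at -0.08 ± 0.17 and GPX1 at -0.05 ± 0.18 in polysomes. SELENOS, at 0.09 ± 0.14, and GPX4, at 0.21 ± 0.18, were the members with positive values. Over the 10, the 95% intervals reached from -0.82 (SELENOH) to 0.57 (GPX4), so none of them includes a doubling or a halving, which is 1 on this scale. The call of 1 in 10 compares with 11.1% of all genes called in polysomes, with 5.61% called higher and 5.48% called lower. Of the 10, 8 were negative with a median of -0.13, against 51.5% of all genes with a median of -0.01. Genes nearest in coding length were also negative in polysomes, with medians between -0.29 (SELENOW) and -0.09 (GPX1), and for MSRB1, SELENOH and SELENOT of -0.21, -0.23 and -0.15. The part of coding length in the members' values was not tested.

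In cytoplasm MSRB1 was again the one called, lower with GC7. It stood at -0.46 ± 0.15, and the authors' deposited table gives a shrunken -0.38 with an adjusted p of 0.0444. The other 9 had intervals that included 0. SELENOK was at -0.36 ± 0.28, SELENOH at -0.34 ± 0.19, SELENOW at -0.30 ± 0.18, GPX1 at -0.18 ± 0.24, SELENOM at -0.14 ± 0.33 and GPX4 at -0.10 ± 0.22. Positive values belonged to SELENOT, at 0.41 ± 0.30, SELENOF, at 0.38 ± 0.32, and SELENOS, at 0.29 ± 0.16, with adjusted p-values of 0.528, 0.597 and 0.368 in the authors' deposited table. The intervals of SELENOT and SELENOF reached 0.99 and 1.00, so a near doubling lies within them. At the other end the interval of SELENOK reached -0.90, so a near halving lies within that one. The call of 1 in 10 compares with 4.24% of all genes called in cytoplasm with 2.29% called higher and 1.95% called lower. The 10 had a median of -0.16 with 7 negative, against -0.01 and 51.3% over all genes. Genes nearest in coding length were negative in cytoplasm too, with medians from -0.19 (SELENOW) to -0.03 (GPX4, SELENOS and SELENOF), and -0.09 for MSRB1. The part of coding length was not tested here either.

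**Figure D3:**
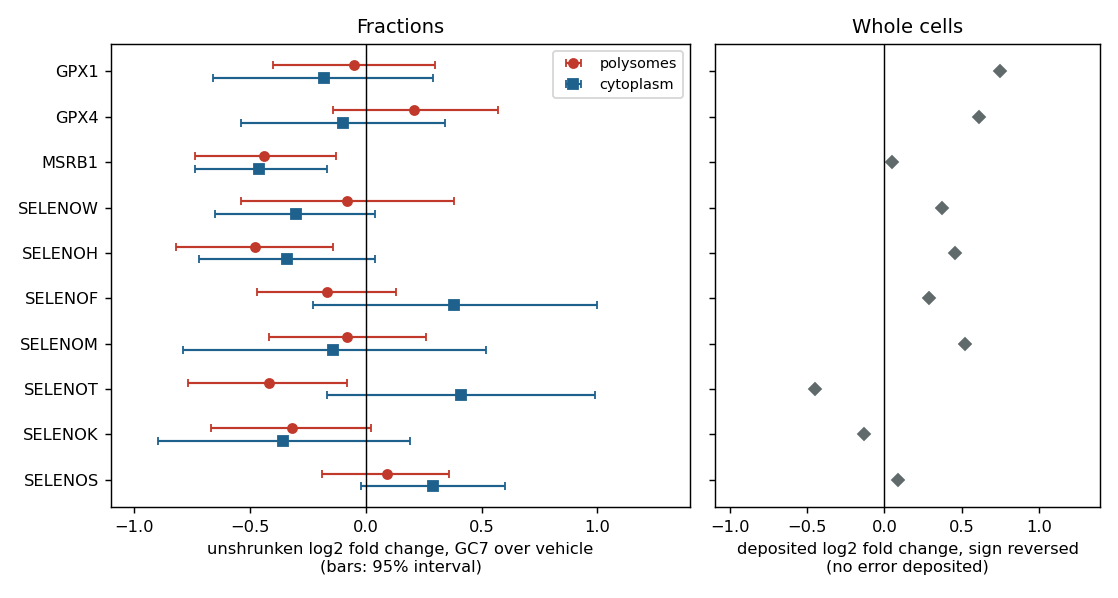
Left: unshrunken log2 fold change, GC7 over vehicle, of the 10 mRNAs in polysomes (red circles) and cytoplasm (blue squares), with 95% intervals from the recovered SE. Right: deposited whole-cell log2 fold change with its sign reversed, without error bars because the table holds none. MSRB1 lies below 0 in polysomes and cytoplasm, at -0.44 and -0.46, and SELENOT lies on opposite sides, at -0.42 in polysomes and 0.41 in cytoplasm.

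In whole cells no member reached an unadjusted p of 0.05 by the authors' deposited table, against 5.01% of the 26660 genes with reads, and no gene of the table passed Benjamini-Hochberg adjustment, where the lowest adjusted p was 0.642. With the sign reversed, the authors' deposited table gives 0.75 for GPX1, 0.61 for GPX4, 0.52 for SELENOM, 0.46 for SELENOH, 0.37 for SELENOW and 0.29 for SELENOF. It gives 0.09 for SELENOS, 0.05 for MSRB1, -0.13 for SELENOK and -0.45 for SELENOT, with unadjusted p-values over the 10 between 0.358 (GPX4) and 0.927 (MSRB1) in the authors' deposited table. The 8 positive values thus include mRNAs whose fraction values were negative, such as SELENOH and MSRB1, and the whole-cell table holds no error from which an interval could be given. The 10 had a median of 0.33 with 2 negative, against -0.01 and 50.4% over the genes with reads.

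Whether GC7 changed ribosome loading beyond abundance was asked by the difference of the unshrunken log2 fold changes, polysomes minus cytoplasm, with a two-sided normal test that takes the errors of both fractions as independent and is approximate with 3 libraries a group. None of the 10 passed Benjamini-Hochberg adjustment over 15741 genes, and no gene of the table did (0% called); at an unadjusted p under 0.05 there were 337 genes, 2.14%, with 1 of the 10 among them. That 2.14% is below the share of 0.05 that the threshold alone would give, so the test erred toward few calls. Its lack of calls therefore does not show that responses were equal in both fractions. That member was SELENOT, at -0.84 ± 0.34 with a 95% interval of -1.51 to -0.16, which failed the adjustment. SELENOF was next at -0.56 ± 0.35, with an interval of -1.24 to 0.13. These are the 2 members with the highest polysome to cytoplasm ratio, and whether the difference goes with that ratio was not tested. Among other selenoproteins SEPHS2, SELENON and SELENOP, with ratios of 0.98, 0.86 and 0.80, had differences of -0.61, 0.06 and -0.18. SERP1, which overlaps SELENOT, stood at 0.01 ± 0.13 in polysomes and 0.16 ± 0.18 in cytoplasm.

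GPX4 was at 0.31 ± 0.29, SELENOW at 0.22 ± 0.29, GPX1 at 0.14 ± 0.30, SELENOM at 0.06 ± 0.38, SELENOK at 0.03 ± 0.33 and MSRB1 at 0.02 ± 0.21 in this difference. SELENOH stood at -0.13 ± 0.26 and SELENOS at -0.20 ± 0.21. MSRB1 thus had nearly equal values in both fractions, and its interval of -0.40 to 0.44 allows a difference of that size either way. The members' median was 0.03, against 0.01 over all genes.

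**Figure D4:**
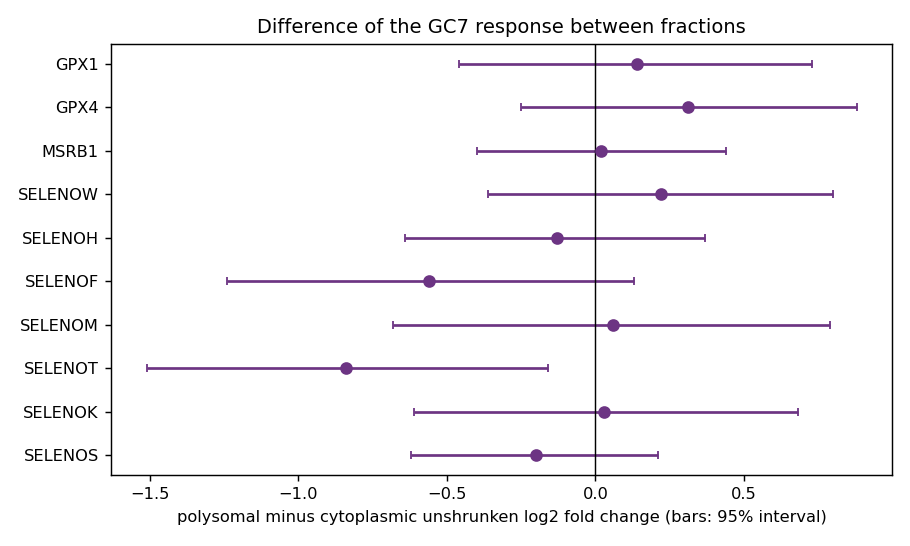
Polysomal minus cytoplasmic unshrunken log2 fold change, GC7 over vehicle, of the 10 mRNAs, with 95% intervals from both SEs taken as independent. The interval of SELENOT, -1.51 to -0.16, is the one that does not include 0, and no member passed adjustment over all genes.

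Read by the place of the TGA, the 7 mRNAs with the codon more than 50 bases before the last junction had a polysomal median of -0.08 (range -0.48 to 0.21) and a cytoplasmic median of -0.14 (range -0.34 to 0.41). The other 3, MSRB1, SELENOK and SELENOS, had -0.32 (range -0.44 to 0.09) in polysomes and -0.36 (range -0.46 to 0.29) in cytoplasm. The ranges overlap in both fractions. Of the 10 core genes of nonsense-mediated decay, such as UPF1 and SMG1, none was called in polysomes or in cytoplasm, with medians of -0.15 and -0.28; at an unadjusted p under 0.05 there were 2 in polysomes and 1 in cytoplasm. Over all 15747 genes 11.1% and 4.24% were called, and 3674 and 2432 had an unadjusted p under 0.05, in the same order, so these counts do not set the list apart. By place in the cell, the 5 ER proteins had a polysomal median of -0.17 and a cytoplasmic median of 0.29, and the other 5 had -0.08 and -0.30. The ranges overlap here too, at -0.36 to 0.41 for the ER proteins and -0.46 to -0.10 for the others in cytoplasm. Both splits were made with the values known and have no test.

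Of the 15 further human selenoproteins, 10 were listed in the fractions, and GPX3 and SELENON passed the test in at least 1 fraction, lower with GC7. GPX3, the secreted glutathione peroxidase, was at -0.47 ± 0.17 in polysomes and -0.74 ± 0.18 in cytoplasm, with adjusted p-values of 0.0483 and 0.00354 in the authors' deposited table. SELENON, an ER protein of calcium handling, was at -0.37 ± 0.14 in polysomes and -0.43 ± 0.13 in cytoplasm, and passed in cytoplasm (the authors' deposited table gives an adjusted p of 0.0596 in polysomes and 0.036 in cytoplasm). TXNRD1, cytosolic thioredoxin reductase, stood at 0.37 ± 0.16 in polysomes and 0.39 ± 0.26 in cytoplasm, with adjusted p-values of 0.134 and 0.491 in the authors' deposited table. As a list these 10 had 1 called lower and none higher in polysomes and 2 lower and none higher in cytoplasm, with a median of -0.09 in each. Over all genes 5.48% were called lower in polysomes and 1.95% in cytoplasm, so the polysomal count of 1 is near the background. The cytoplasmic count of 2 in 10 is above that share, and whether the list differs from all genes was not tested. SEPHS2, which makes the selenium donor and is itself a selenoprotein, SELENON and SELENOP, the selenium carrier of plasma, had centred polysome to cytoplasm ratios of 0.98, 0.86 and 0.80, at percentiles 97.3, 95.8 and 94.7, the highest 3 of these 10, whose median was 0.30 and of which 4 lay below the median gene. In whole cells GPX2 stood at -0.89 with the sign reversed (unadjusted p = 0.0347 in the authors' deposited table), but its Benjamini-Hochberg adjusted p was 0.953. It was 1 of 12 further selenoproteins with whole-cell reads, and the only one under an unadjusted p of 0.05, against 5.01% of all genes with reads. GPX2 was rare in the fractions, at 21.4 mean normalized counts in polysomes and 12.6 in cytoplasm.

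Among 17 genes of selenocysteine insertion and selenium supply, 2 rose in polysomes and 1 in cytoplasm, and none fell, counts near the share of all genes called (11.1% in polysomes and 4.24% in cytoplasm). SARS1, the seryl-tRNA synthetase that also loads the selenocysteine tRNA with serine, rose by 1.11 ± 0.15 in polysomes and 1.09 ± 0.32 in cytoplasm, with adjusted p-values of 1.34e-10 and 0.0254 in the authors' deposited table. In whole cells it stood at 1.79, and its adjusted p by Benjamini-Hochberg was 0.87. SARS1 was the only one of the 17 genes with an unadjusted p under 0.05 there, against 5.01% of all genes with reads. SEPSECS, which converts that serine, once phosphorylated, into selenocysteine, rose by 0.97 ± 0.24 in polysomes (adjusted p of 0.00126 in the authors' deposited table) and stood at 0.79 ± 0.30 in cytoplasm (0.12 in that deposited table). TRNAU1AP, a protein bound to the selenocysteine tRNA, was at -0.30 ± 0.13 in polysomes, EEFSEC at 0.21 ± 0.17 and SECISBP2 at 0.11 ± 0.18, none of them called. The list's medians were 0.04 in polysomes and 0.05 in cytoplasm.

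**Figure D5:**
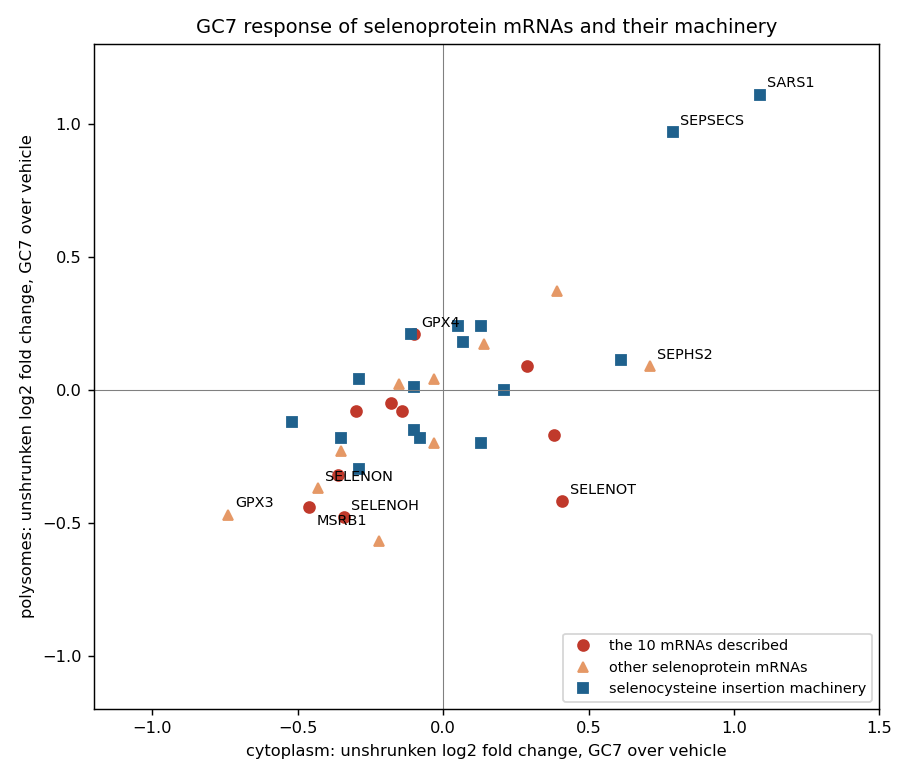
Unshrunken log2 fold change, GC7 over vehicle, in cytoplasm (horizontal) and polysomes (vertical) for the 10 mRNAs (red circles), the 10 other selenoprotein mRNAs (orange triangles) and the insertion machinery (blue squares, with SEPHS2 drawn as a selenoprotein). SARS1 and SEPSECS lie at the upper right, at 1.11 and 0.97 in polysomes, and MSRB1, GPX3 and SELENON at the lower left.

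The 9 measured relatives that carry cysteine in place of selenocysteine, or that share a fold or pathway with a selenoprotein, had no call in polysomes or cytoplasm and none at an unadjusted p under 0.05; with 11.1% and 4.24% of all genes called there, 0 of 9 does not set them apart. Their medians were 0.02 in polysomes and 0.03 in cytoplasm. MSRB3 and MSRB2, relatives of MSRB1, stood at -0.12 ± 0.14 and 0.07 ± 0.19 in polysomes, and whether they differ from MSRB1 was not tested. Of the 9 partners of the ER selenoproteins, SEL1L, a core protein of ER-associated degradation, rose by 0.87 ± 0.21 in polysomes (adjusted p of 0.00159 in the authors' deposited table). ZDHHC6, the partner of SELENOK, fell by 0.49 ± 0.14 there on the same scale (adjusted p of 0.00801 in the authors' deposited table), and none was called in cytoplasm, where their median was -0.32. Over all genes 5.61% were called higher and 5.48% lower in polysomes, and 4.24% were called in cytoplasm.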

How the data were processed

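Per the labels' protocols STAR 2.7.8a was run against GRCh38; the submitters' processing notes also name Salmon 1.4.0, whose step is not given in the sources used here. Per the file headers, the authors' deposited values are log2 fold changes with p-values (whole cells, unadjusted p-values only) and, for each fraction, mean normalized counts (read as means over GC7 and vehicle libraries), SEs and adjusted p-values. The tables hold no per-library values, so the planned tests on counts were not run. The whole-cell base was read as log2, since the step from no read to 1 read is 0.528, as log2(1.5/0.5)/3 is, and the sign was reversed because the values as deposited correlate at -0.27 with cytoplasm and -0.37 with polysomes (Spearman, 14103 genes). Fraction fold changes were taken as shrunken, since they are smaller than their p-values imply. A Cauchy prior was fitted to the deposited p-values (scale 0.203 in polysomes, 0.197 in cytoplasm, natural log), unshrunken values and SEs were computed from it, and for 99.8% and 99.7% of genes the z so obtained was less than 0.1 away from the z of the deposited p-value. The 6 genes off by over 0.5 were left out of the difference test. Intervals are 95%. Coding features come from GENCODE 44, in Python 3.11.15 with scipy 1.17.1.

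The members, lists and rule for named genes (all 10 members, called genes of each list and up to 3 others by smallest polysomal p, of which the text gives a selection) were chosen with earlier results of these data known. SERP1 and several uncalled genes (EEFSEC, SECISBP2, MSRB2, MSRB3, SEPHS2, SELENOP) were named outside that rule. No other gene's exons overlapping a member's besides SERP1's were listed in the fractions, nor were any of 9 annotated pseudogenes of 5 members, whose reads the counting could share. Some marker genes are not reported here.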

Additional observations from a re-analysis of the deposited data

How the results depend on the processing

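Per-library values were not used, so tests by other tools, leaving out replicates and filters on per-library counts were not run; a minimum mean normalized count of 10 left 1 member called in each fraction. No paired analysis was possible because the tables carry no columns of single libraries. At an adjusted p under 0.01 the members called fell to 0 in polysomes and 0 in cytoplasm, with MSRB1 at 0.0486 and 0.0444; adjusted anew over the listed genes, 2 were called in polysomes (MSRB1 at 0.0461, SELENOH at 0.0494). No member passed in the difference between fractions under any of the 6 alternatives run, except that the prior scale times 0.8 gave no value for SELENOM, and the number of all genes called was 0 with the fitted prior, 1 with shrunken values, 183 with the prior scale times 0.8, 3 with a wider prior scale, and 25 with errors correlated at 0.5. SELENOT then ranged from -0.93 to -0.47, with an adjusted p between 0.19 and 1.0. In that difference the sign of SELENOK turned to -0.08 with shrunken values and -0.03 with the wider prior scale, and that of SELENOM to -0.01 with shrunken values. As shares of the sum of all genes, 8 of 10 members had a larger share in polysomes than in cytoplasm. GPX1 then stood at 0.32, GPX4 at 0.24 and SELENOM at 0.04. SELENOM lay at percentile 27.8 of all genes by this ratio, so most genes also had a larger share in polysomes. The count of 8 therefore does not set the members apart. Without mitochondrially encoded genes GPX1 stood at 0.14 and GPX4 at 0.07. SELENOF and SELENOT kept ratios of 0.96 to 1.4 and 0.70 to 1.16 over the 4 scalings.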
